A study of Mus musculus with 2 samples.

Results

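Igf2, H19, Cdkn1c, Peg3, Dlk1, Mest, Grb10, Plagl1 and Ndn are imprinted genes linked to growth, and they were followed in single cell RNA-seq of dystrophic mouse muscle. They were found by symbol, and all 9 were present among the 24984 gene rows of each library. The genes were proposed because the Igf2 level in fibro-adipogenic progenitors (FAPs) differed between the libraries, so the levels below are a description of these libraries and carry no test. The cells were live mononuclear cells sorted from the hind limb muscles of mdx animals, a dystrophin-deficient model of Duchenne muscular dystrophy. RNA molecules caught from each cell in a droplet were told apart by unique molecular identifiers (UMIs), so that 1 UMI stands for 1 RNA molecule. Mice of the Ctrl group were Pax7CreERT2/R26YFP, Yy1+/+ and mdx, and mice of the dKO group were Pax7CreERT2/R26YFP, Yy1 f/f and mdx. Yy1 encodes a zinc finger transcription factor, and Pax7 drives the tamoxifen-induced Cre, so that deletion is directed to muscle stem cells (MuSCs) and the other cell types keep the gene. Both groups received tamoxifen on 5 consecutive days at 1.5 months of age and muscle was taken 1 month later. Each group was 1 library made from 3 pooled mice, so the differences lack a replicate check and could not be tested.

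An imprinted gene is transcribed mainly from the copy inherited from the mother or mainly from the copy inherited from the father. Several such genes act on fetal growth, paternally expressed members such as Igf2 often promoting it and maternally expressed members such as H19 and Cdkn1c often restraining it, and many are turned down in most tissues after birth. Igf2 and H19 share enhancers and an imprinting control region, and in muscle Igf2 is known as a growth factor that differentiating myoblasts produce. UMIs do not show which parental copy an RNA came from.

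The positions below are those of GENCODE M21 on GRCm38. Igf2 (chr7:142650766-142666816, minus strand) and H19 (chr7:142575529-142578143, minus strand, a long intergenic non-coding RNA gene) lie 72.6 kb apart, and Cdkn1c (chr7:143458339-143461050, minus strand) lies 792 kb beyond Igf2. Peg3 (chr7:6703892-6730431, minus strand) and Ndn (chr7:62346569-62350262, plus strand) are elsewhere on chromosome 7. Mest is at chr6:30723547-30748465 and Plagl1 at chr10:13060504-13131694, both on the plus strand. Grb10 is at chr11:11930508-12038683 on the minus strand and Dlk1 at chr12:109452823-109463336 on the plus strand. The genes other than H19 are annotated as protein coding. Igf2 overlaps a gene on the opposite strand, Igf2os, and how reads were assigned to strands is not given in the sources used here.

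The sequences before 4 start sites are printed because these genes stood at different places in the comparison below, with Igf2, Mest and Dlk1 past 2-fold and Grb10 short of it in FAP-like cells. Each run gives the 250 bases before a RefSeq start site (GRCm38.p6), in the direction of transcription, with CG dinucleotides, the places where DNA methylation of an imprinted promoter can sit, in capitals. None of these 4 stretches overlaps an exon annotated in GENCODE M21, and those of Igf2 (chr7:142657497-142657746, minus strand), Mest (chr6:30737800-30738049, plus strand) and Grb10 (chr11:12037421-12037670, minus strand) lie inside the annotated genes, before start sites within them. The Dlk1 stretch (chr12:109452573-109452822, plus strand) ends where the annotated gene begins.
Igf2: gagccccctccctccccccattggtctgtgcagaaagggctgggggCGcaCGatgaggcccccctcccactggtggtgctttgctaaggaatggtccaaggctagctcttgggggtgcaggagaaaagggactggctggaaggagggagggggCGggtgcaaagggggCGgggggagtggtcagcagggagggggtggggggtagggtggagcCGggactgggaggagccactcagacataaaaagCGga
Mest: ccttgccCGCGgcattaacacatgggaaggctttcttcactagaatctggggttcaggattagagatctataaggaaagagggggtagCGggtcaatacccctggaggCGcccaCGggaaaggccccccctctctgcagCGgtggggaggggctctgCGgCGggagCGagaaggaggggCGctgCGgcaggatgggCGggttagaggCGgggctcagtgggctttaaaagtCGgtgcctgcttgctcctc
Dlk1: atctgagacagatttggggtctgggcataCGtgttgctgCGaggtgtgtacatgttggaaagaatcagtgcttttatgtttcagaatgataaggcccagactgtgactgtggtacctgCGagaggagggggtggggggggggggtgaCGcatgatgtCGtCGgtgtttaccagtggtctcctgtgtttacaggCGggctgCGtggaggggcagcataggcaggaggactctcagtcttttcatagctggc
Grb10: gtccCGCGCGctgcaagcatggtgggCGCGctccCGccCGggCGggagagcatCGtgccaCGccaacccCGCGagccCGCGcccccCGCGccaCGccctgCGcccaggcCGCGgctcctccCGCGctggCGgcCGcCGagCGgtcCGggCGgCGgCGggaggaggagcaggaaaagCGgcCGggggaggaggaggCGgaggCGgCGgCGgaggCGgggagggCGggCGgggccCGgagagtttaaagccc
For each gene the stretch printed is the one with most CG dinucleotides among its windows that overlap no annotated exon. The Igf2 stretch holds 6 CG dinucleotides, the Dlk1 stretch 8, the Mest stretch 14 and the Grb10 stretch 40. Windows of 1 gene differed as well, since the other 3 Igf2 windows hold 1, 10 and 22 and the other Grb10 window 8. RefSeq windows were found for 7 of the 9 genes, 13 in all, and their median was 8 CG dinucleotides in 250 bases against 6 over 32851 windows of the genome. The letters AANATGGC, the core of a YY1 motif with N for any base, were searched on both strands of windows of 300 bases that run from 250 before to 50 after a start. They were in 0 of the 13 windows and in 6.05% of all windows, and nothing about YY1 binding follows from their absence in such short windows.

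The Ctrl library held 4527 cell barcodes and 45556596 UMIs and the dKO library 3483 cell barcodes and 33815155 UMIs. After filtering, 4010 Ctrl and 3079 dKO cells were kept, with 6 barcodes in common. They were grouped into classes named from marker genes as "like" a cell type, with the 9 genes kept out of the clustering. There were 1099 Ctrl and 1149 dKO FAP-like cells, with a median of 11755 and 11868 UMIs per cell, so these cells had been read to nearly the same depth. The MuSC-like class had 119 Ctrl and 30 dKO cells and also held cells with myofibre genes. In it Yy1 was counted in 370 UMIs in Ctrl and 3 in dKO, 160 against 4.85 CPM (the UMIs of a gene scaled to the standard common total of UMIs for every class), which checks the labels. In FAP-like cells Yy1 was at 121 CPM in Ctrl and 132 CPM in dKO.

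Igf2 UMIs were found in most cell classes but at a high level in few, and the level in FAP-like cells was lower in dKO. In Ctrl the order by CPM was MuSC-like cells at 199 CPM (181 to 218), smooth muscle-like cells at 147 (122 to 176), endothelial (EC-like) cells at 108 (95.5 to 121), neutrophil-like cells at 70.0 (45.3 to 103) and FAP-like cells at 31.8 (29.0 to 34.7). The ranges are 95% exact Poisson intervals, which cover counting error only, and those of MuSC-like and smooth muscle-like cells, the neighbours at the top, did not overlap, while those of smooth muscle-like and EC-like cells did not overlap either. The neutrophil-like value rests on 25 UMIs, of which 23 were in 1 cell, its interval overlapped that of EC-like cells, and the dKO neutrophil-like cells had 0. In dKO the order was MuSC-like cells at 333 CPM, EC-like cells at 135, smooth muscle-like cells at 121, a small cycling FAP-like class at 53.8, tenocyte-like cells at 6.77 (2.48 to 14.7, 6 UMIs) and FAP-like cells at 5.88 (4.73 to 7.23), the last pair with overlapping intervals. EC-like and smooth muscle-like cells of dKO overlapped in their intervals. T cell-like cells, which should lack the gene, held Igf2 UMIs in 1 cell of each library, and B cell-like cells in 0.

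**Figure D1:**
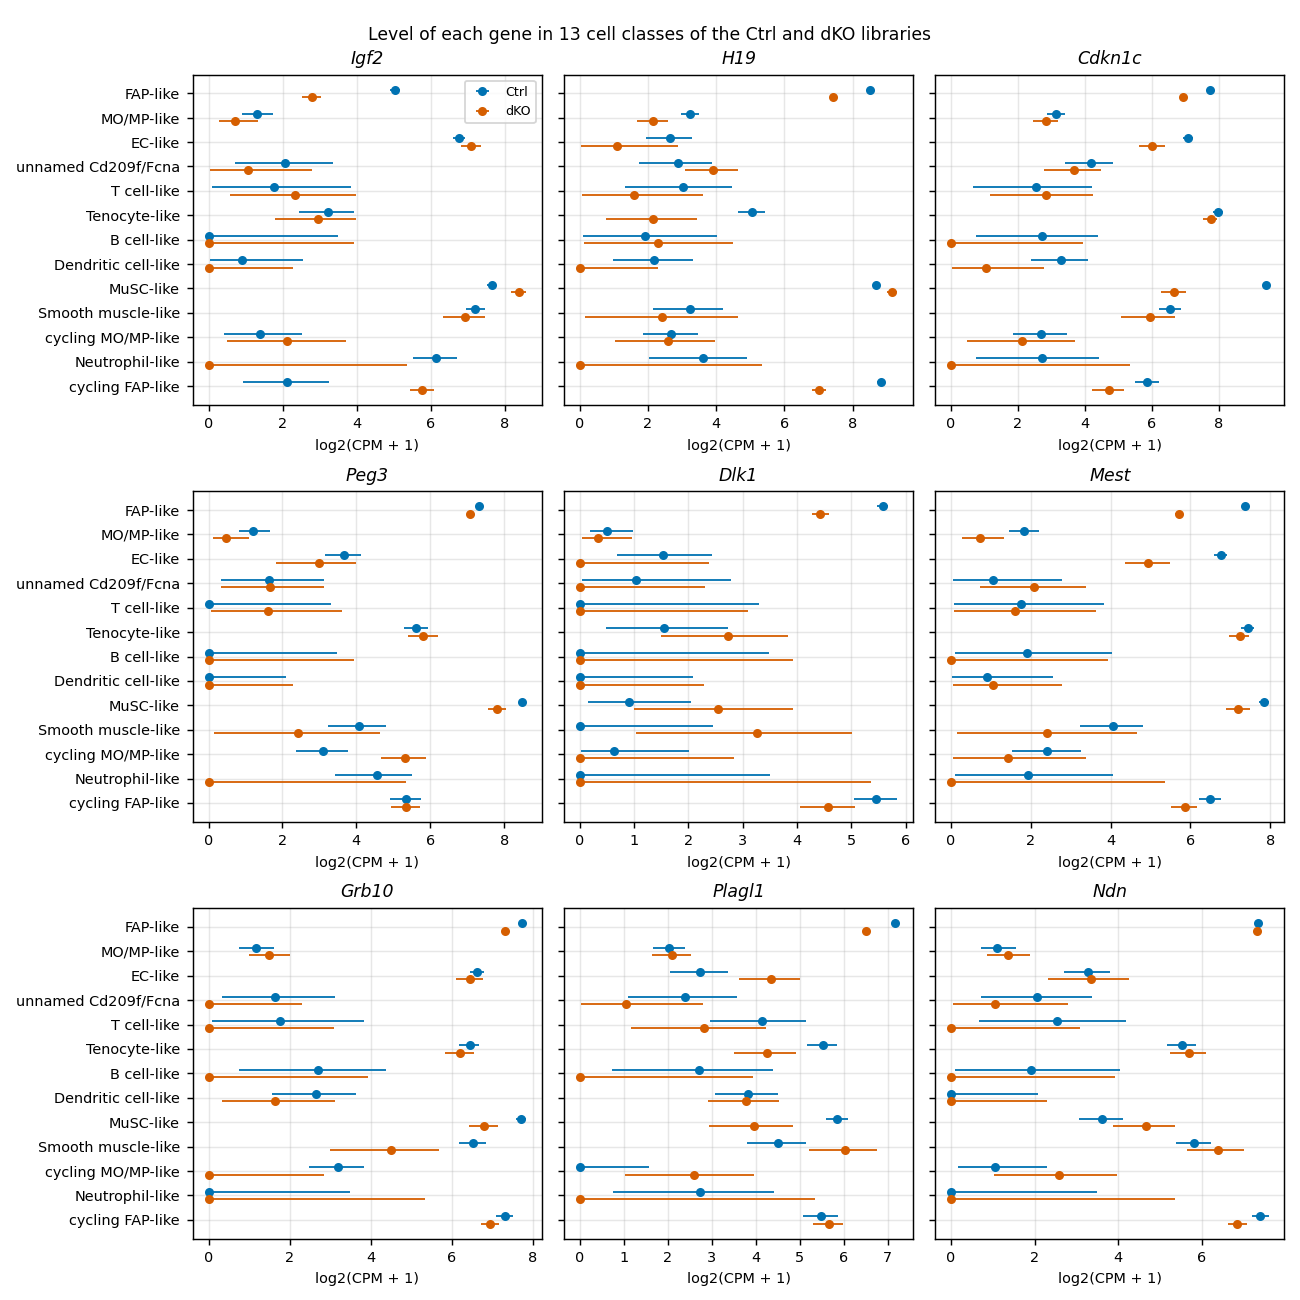
Levels of the 9 genes in 13 cell classes, as log2(CPM + 1) on the x axis, with blue points for the Ctrl library and orange points for the dKO library. Bars are 95% exact Poisson intervals of counting error. The Igf2 points of FAP-like cells stand apart at 31.8 CPM in Ctrl and 5.88 in dKO, while the Ndn points of the same cells nearly coincide at 161 and 158 CPM.

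In FAP-like cells Igf2 was counted in 472 UMIs in Ctrl and 90 in dKO, a ratio of dKO to Ctrl of 0.185 (0.146 to 0.232, 95% exact conditional binomial interval). On the log2 scale the ratio was -2.43, and only 4 of the 10252 genes counted here with 100 UMIs or more had a lower one. The Igf2 UMIs were in 107 of 1099 Ctrl cells and 46 of 1149 dKO cells. FAP-like cells held 33.4% (30.9 to 35.9) of all Igf2 UMIs of the Ctrl library and 16.9% (13.8 to 20.4) of those of dKO, although they were a larger share of the dKO cells (37.3% against 27.4%). The ranges of shares are exact binomial intervals.

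The UMIs were concentrated in a small number of cells. The FAP-like cells with most Igf2 UMIs held 63, 43 and 18 in Ctrl and 11, 6 and 6 in dKO. A single FAP-like cell held 13.3% of the class's Igf2 UMIs in Ctrl and 12.2% in dKO, and 12 Ctrl cells and 10 dKO cells held at least 50%. The top 10% of cells held 100% in both libraries, which follows from so few cells having any. Without the top cell of each library the log2 ratio was -2.41. The cycling FAP-like class, not counted here, held 4 Igf2 UMIs in Ctrl and 73 in dKO, 61 of them in 1 cell. With both FAP classes together Igf2 was at 476 and 163 UMIs, a ratio of 0.330 (0.274 to 0.395) or -1.60 on the log2 scale, a sum chosen after seeing the data.

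**Figure D2:**
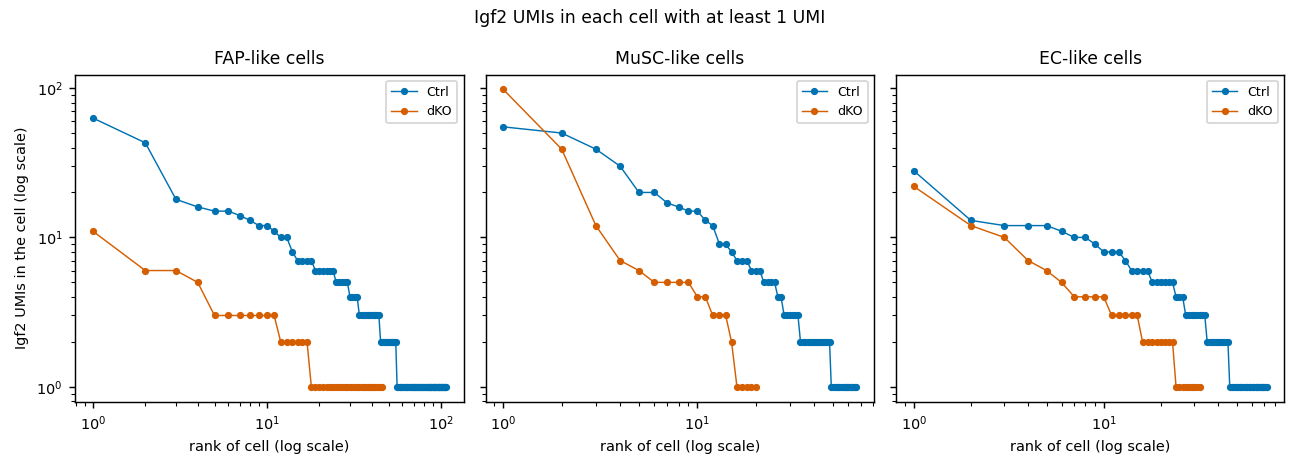
Igf2 UMIs in every cell that had at least 1, ranked from the highest, in FAP-like, MuSC-like and EC-like cells, with both axes on log scales. The Ctrl curve of FAP-like cells lies above the dKO curve along its length and starts at 63 against 11 UMIs. In MuSC-like cells the first dKO cell, with 98 UMIs, lies above the first Ctrl cell, with 55.

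To set shares of cells side by side at equal depth, UMIs of every cell were drawn at random down to a total of 2000. Of the FAP-like cells 64 in Ctrl and 54 in dKO were too shallow and were not used. Igf2 was then detected in 43 of 1035 Ctrl cells, 4.15% (3.02 to 5.56), and in 9 of 1095 dKO cells, 0.822% (0.377 to 1.55). Before thinning the shares were 9.74% and 4.0%. T cell-like cells, with a median of 3069 UMIs in Ctrl and 3062.5 in dKO, had a thinned Igf2 UMI in 0 of 95 Ctrl and 1 of 114 dKO cells, 0.877% (0.0222 to 4.79), a wide interval that holds the dKO share in FAP-like cells. By summed level, dKO FAP-like cells at 5.88 CPM lay above MO/MP-like cells of dKO at 0.651 CPM (0.211 to 1.52, 5 UMIs), while T cell-like cells of dKO were at 4.07 CPM (0.493 to 14.7, 2 UMIs in 1 cell), an interval that holds the FAP-like value. A count of 0 in 95 cells allows a share of up to 3.16% when taken as at most 3 cells, and up to 3.81% by the exact binomial interval.

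The remaining 8 genes had ratios from 0.312 to 0.978 in FAP-like cells, and 4 of the 9 were lower by 2-fold or more (Igf2, H19, Dlk1 and Mest). H19 fell short of 2-fold when cells with MuSC or EC genes were left out, at a log2 ratio of -0.93. Among all 10252 genes that reached 100 UMIs there, 0.566% were lower by that much and 0.722% higher. The median log2 ratio was -0.82 for the 9 genes and -0.06 for all genes, and all 9 had a ratio below 1, as did 60.8% of all genes, although Ndn came to lie just above 1 under 3 other ways of processing. The 9 genes were proposed with the Igf2 difference in view, and these counts and medians are not independent of that choice.

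H19, the non-coding RNA made from the maternal copy beside Igf2, was counted in FAP-like cells in 5416 UMIs in Ctrl and in 2619 in dKO. These were 364 CPM (355 to 374) and 171 CPM (165 to 178), a ratio of 0.470 (0.448 to 0.492). The UMIs were in 360 Ctrl and 257 dKO cells, and at 2000 UMIs per cell the shares were 20.6% (18.2 to 23.2) and 11.2% (9.42 to 13.3). H19 was thus lower both in how many cells had it and in its summed level. FAP-like cells held 76.0% of all H19 UMIs in Ctrl and 81.8% in dKO.

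Among the paternally expressed genes, Mest, which encodes a membrane protein of the hydrolase fold, had the largest difference after Igf2. It was counted in 2444 UMIs in Ctrl and 786 in dKO, 164 CPM (158 to 171) against 51.4 CPM (47.8 to 55.1), a ratio of 0.312 (0.288 to 0.339). Only 12 genes of the 10252 had a lower ratio. Dlk1, a membrane protein of the Notch ligand family that restrains fat cell formation, was at 694 and 314 UMIs, 46.7 CPM (43.3 to 50.3) against 20.5 CPM (18.3 to 22.9), a ratio of 0.439 (0.383 to 0.503). Of all Dlk1 UMIs, FAP-like cells held 91.1% in the Ctrl library and 88.0% in the dKO library.

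Plagl1, a zinc finger transcription factor, was at 142 CPM (2110 UMIs) in Ctrl and 90.5 CPM (1385 UMIs) in dKO, a ratio of 0.638 (0.595 to 0.683). Peg3, another zinc finger protein, was at 159 CPM (2369 UMIs) and 133 CPM (2039 UMIs), a ratio of 0.836 (0.787 to 0.887). Ndn, a MAGE family protein that limits cell growth, was at 161 CPM (2398 UMIs) and 158 CPM (2414 UMIs), and its ratio of 0.978 had an interval that included 1 (0.924 to 1.03). The 4 paternally expressed genes besides Igf2 and Ndn thus had ratios from 0.312 to 0.836, with Ndn nearest to 1.

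Cdkn1c and Grb10, maternally expressed genes that encode inhibitors, were lower by less than 2-fold. Cdkn1c, which encodes the cyclin-dependent kinase inhibitor p57, was counted in 3169 Ctrl and 1842 dKO UMIs, 213 CPM (206 to 221) against 120 CPM (115 to 126), a ratio of 0.565 (0.533 to 0.598). Grb10, an adaptor that dampens insulin and IGF receptor signalling, was counted in 3134 and 2406 UMIs, 211 CPM (204 to 218) against 157 CPM (151 to 164), a ratio of 0.746 (0.707 to 0.787).

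**Figure D3:**
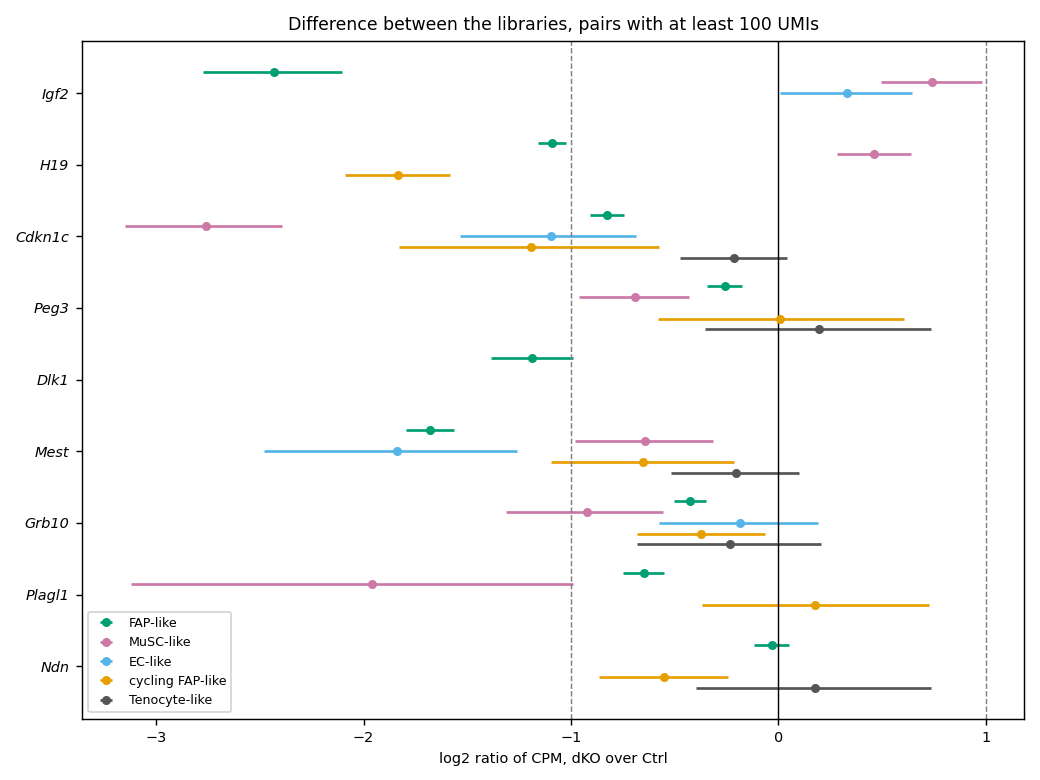
Log2 ratio of CPM, dKO over Ctrl, for each of the 9 genes in 5 cell classes, shown for pairs of gene and class with at least 100 UMIs. Bars are 95% exact conditional binomial intervals of counting error, the solid line marks no difference and the dashed lines a 2-fold difference. The FAP-like points run from -2.43 for Igf2 to -0.03 for Ndn, and the Igf2 points of MuSC-like and EC-like cells lie to the right of 0.

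Other genes of imprinted regions and of the IGF axis were read from lists written with earlier results of these data known. Of 47 other imprinted genes, 26 reached 100 UMIs in FAP-like cells and 0 of them were past 2-fold in either direction, while 21 had a ratio below 1, with a median log2 ratio of -0.17. Over all genes 0.566% were 2-fold lower, 0.722% higher and 60.8% below 1, and the counts of 0 in lists of this size lie near those shares. Meg3 and Rian, maternally expressed non-coding RNAs of the region that holds Dlk1, had ratios of 0.827 and 0.774. Of 21 IGF axis genes, 14 had at least 100 UMIs and 0 were past 2-fold, with 7 below 1 and 7 above, and a median log2 ratio of -0.02. Igf2r, the receptor that clears Igf2 and is itself imprinted, had a ratio of 0.708 (0.666 to 0.751). Igf1, a growth factor of the same axis, was at 693 and 657 CPM, a ratio of 0.949, and its receptor Igf1r had a ratio of 0.960.

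Markers of other cells moved with these differences inside the FAP-like class. The summed level of 10 MuSC markers was 50.7 CPM in Ctrl and 28.6 CPM in dKO, 8 of the 10 were lower in dKO, and Pax7 and Calcr, which define these cells, were at 0. The 10 EC markers were at 18.4 and 8.10 CPM with 10 of 10 lower, 8 myocyte markers at 44.3 and 14.2 CPM with 7 of 8 lower, and 8 cell cycle markers at 28.5 and 16.3 CPM with 8 of 8 lower. The 7 pericyte markers were at 218 and 158 CPM with 6 of 7 lower, while 8 perineurial markers were at 25.3 and 46.9 CPM with 5 of 8 lower and 6 lymphatic EC markers at 163 and 204 CPM with 1 of 6 lower. The 10 FAP markers summed to 29810 and 28857 CPM. FAP-like cells with no UMI of Pax7, Myf5, Myod1, Myog, Cdh15, Pecam1, Cdh5 or Kdr numbered 1012 in Ctrl and 1104 in dKO, and in them the log2 ratio was -2.57 for Igf2, -1.49 for Mest, -1.23 for Dlk1 and -0.93 for H19, so H19 no longer passed 2-fold. The part of the cell cycle, myocyte, pericyte, perineurial and lymphatic EC markers in these results was not tested.

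FAP-like cells were divided into 7 sub-clusters, named here by their leading genes, again without the 9 genes in the clustering. The largest, G0s2/Fibin, had 378 Ctrl and 305 dKO cells and held most of the Igf2 UMIs of Ctrl. There Igf2 was counted in 263 UMIs in 51 Ctrl cells and 15 UMIs in 11 dKO cells, 54.6 CPM (48.2 to 61.6) against 3.89 CPM (2.18 to 6.41), a ratio of 0.0713 (0.0393 to 0.120). In the Acta2/Rgcc sub-cluster Igf2 was at 25.2 and 5.48 CPM, and in the Zfp36/Ikzf4 sub-cluster, led by stress response genes, at 33.1 and 14.7 CPM. Igf2 was lower in all 3 sub-clusters that had at least 100 UMIs. The other sub-clusters held 3 to 17 Igf2 UMIs in Ctrl, too few for a comparison at this depth.

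The differences were nearly as large at a fixed mixture of sub-clusters. With the dKO levels weighted by the Ctrl shares of UMIs in each sub-cluster, the ratio was 0.195 for Igf2, 0.341 for Mest, 0.435 for Dlk1, 0.484 for H19 and 1.01 for Ndn. Mest was lower in 7 of 7 sub-clusters, from 258 to 87.6 CPM in G0s2/Fibin and from 184 to 67.6 CPM in Acta2/Rgcc. Dlk1 differed between sub-clusters, at 90.9 and 21.5 CPM in G0s2/Fibin and at 19.9 and 26.0 CPM in Acta2/Rgcc, where the interval of the ratio (0.962 to 1.77) included 1. In the clustering of all cells, Dlk1 was higher in dKO in the FAP-like cluster led by Cxcl5, at 18.8 and 29.1 CPM (108 and 177 UMIs), a ratio of 1.54 (1.21 to 1.98), and lower in the FAP-like cluster led by Inmt, at 73.7 and 17.2 CPM (582 and 130 UMIs), a ratio of 0.234 (0.192 to 0.283). The lower Dlk1 level of FAP-like cells as a whole was thus not shared by their clusters. H19 was lower in 5 of 7 sub-clusters. It was higher in dKO in Dmkn/Car8, the sub-cluster with Dpp4 among its leading genes, at 273 and 373 CPM. There 168 of the 588 dKO UMIs were in 1 cell. H19 was also higher in Clu/Vit, at 3 and 37 UMIs, with 20 of the 37 in 1 cell. The FAP-like cluster led by Cxcl13 in the clustering of all cells also had Dpp4 among its leading genes. In that cluster H19 was lower in dKO, at 273 and 223 CPM (339 and 375 UMIs), a ratio of 0.818 (0.704 to 0.9502). The higher H19 level in Dmkn/Car8 was thus not seen in that clustering. The differences between clusters and between sub-clusters were not tested.

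**Figure D4:**
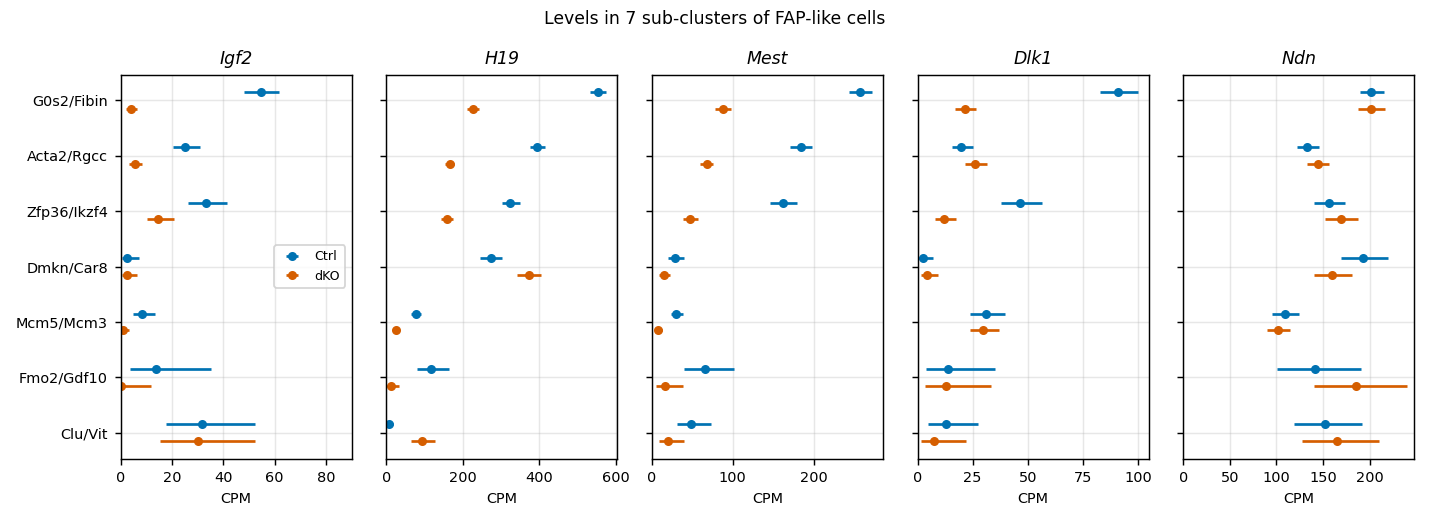
Levels in CPM of Igf2, H19, Mest, Dlk1 and Ndn in 7 sub-clusters of FAP-like cells, with blue points for Ctrl, orange points for dKO and 95% exact Poisson intervals as bars. Each gene has its own x axis. In G0s2/Fibin the Ctrl points of Igf2, H19, Mest and Dlk1 lie to the right of the dKO points, and the Ndn points coincide at 202 and 201 CPM.

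Shared detection of the genes in single FAP-like cells was described for each library. Among 917 Ctrl cells thinned to 5000 UMIs, 62 had Igf2, and Dlk1 was in 24.2% (14.2 to 36.7) of these against 8.65% (6.86 to 10.7) of the other cells. H19 was in 45.2% against 25.8%, and Ndn in 54.8% against 53.1%. In dKO only 19 of 971 cells had Igf2 at this depth, and the intervals overlapped, with Dlk1 in 10.5% (1.30 to 33.1) against 4.62% (3.38 to 6.16), Mest in 10.5% (1.30 to 33.1) against 15.02% (12.8 to 17.5), Peg3 in 26.3% (9.15 to 51.2) against 33.9% (30.9 to 37.0) and Grb10 in 36.8% (16.3 to 61.6) against 48.4% (45.2 to 51.7). Over Ctrl cells the closest pair was Mest and Plagl1, with a Pearson r of 0.34 over the 917 thinned cells, followed by H19 and Mest at 0.31. These correlations of sparse counts within 1 library share cell quality and are given as a description.

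Markers of several cell types were summed in FAP-like cells with and without Igf2. The FAP markers summed to 28443 CPM in the 107 Ctrl cells with an Igf2 UMI and to 29987 CPM in the other 992, and the MuSC markers to 67.1 and 48.5 CPM. In dKO the cells with Igf2 had MuSC markers at 49.7 against 27.4 CPM, EC markers at 13.01 against 7.81 CPM and smooth muscle markers at 177 against 130.4 CPM, and the part of these markers was not tested. In Ctrl, H19 was at 765 CPM in cells with Igf2 and 313 CPM in those without, Dlk1 at 182 and 29.2 CPM and Cdkn1c at 472 and 180 CPM. In dKO the same values were 412 and 157 CPM for H19, 35.5 and 19.6 CPM for Dlk1 and 144 and 119 CPM for Cdkn1c. Mest, Grb10 and Plagl1 were higher in cells with Igf2 in both libraries, as was Peg3 in Ctrl. Ndn was lower in cells with Igf2, at 158 and 162 CPM in Ctrl and 148 and 158 CPM in dKO. So was Peg3 in dKO, at 129 and 133 CPM. Cells with Igf2 were read more deeply, with a median of 14128 against 11308.5 UMIs in Ctrl and 16206.5 against 11648 in dKO, and CPM is already scaled to each group's total. At 5000 UMIs a cell had a mean of 2.91 of the 9 genes in Ctrl and 2.32 in dKO, and 5 or more were found in 171 of 917 Ctrl cells (18.6%) and 78 of 971 dKO cells (8.03%).

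**Figure D5:**
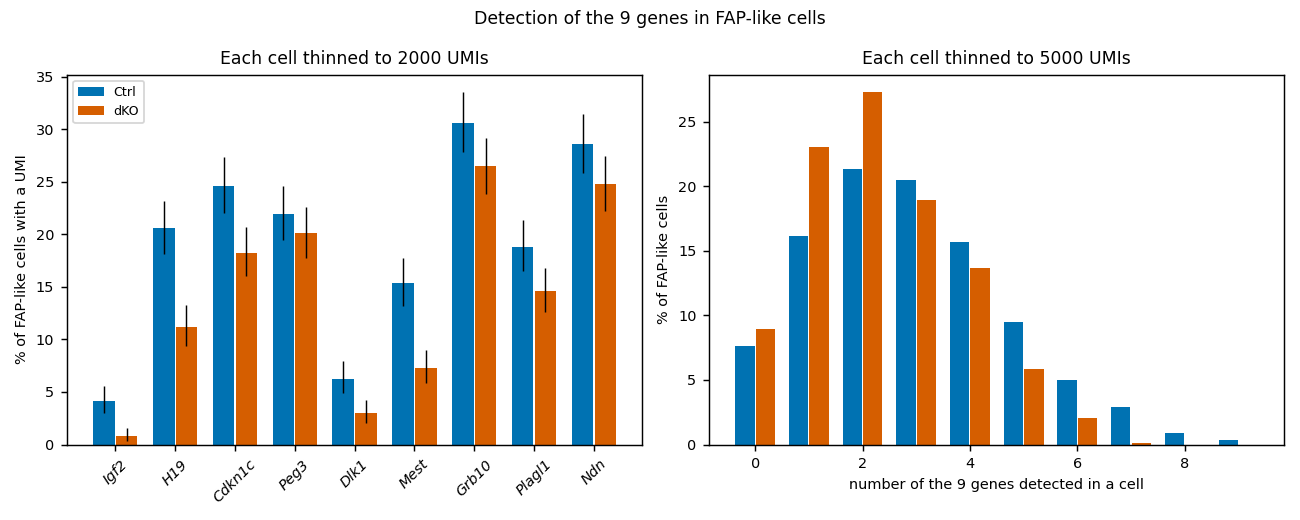
Left, percent of FAP-like cells with at least 1 UMI of each gene after thinning every cell to 2000 UMIs, with 95% exact binomial intervals. Right, percent of FAP-like cells by how many of the 9 genes were detected at 5000 UMIs per cell. Blue bars are Ctrl and orange bars dKO, and the dKO bars of Igf2 (0.822%) and H19 (11.2%) end below the Ctrl bars (4.15% and 20.6%). From 3 genes upward each Ctrl bar is higher than its dKO bar.

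The cycling FAP-like class had 36 Ctrl and 38 dKO cells. H19 was at 457 CPM (543 UMIs) in Ctrl and 128 CPM (174 UMIs) in dKO, a ratio of 0.281 (0.235 to 0.334), and Cdkn1c at 57.3 and 25.1 CPM, a ratio of 0.438. Of the Cdkn1c UMIs 41 of 68 in Ctrl and 15 of 34 in dKO were in 1 cell, and without the top cell of each library the log2 ratio was -0.68, short of 2-fold, as it was with no doublets removed (-0.86) and at a resolution of 0.4 (-0.78). At that resolution the class so named was a wider set of 124 Ctrl and 173 dKO cells, led by Cxcl5. H19 and Cdkn1c were the 2 of 7 genes with at least 100 UMIs that were lower by 2-fold, against 0.777% of all genes tested in this class, and 0 were higher, against 1.74%. Beside them, 6 smooth muscle markers summed to 549 and 213 CPM (5 of 6 lower), 10 EC markers to 40.4 and 4.43 CPM (8 of 10 lower) and 10 MuSC markers to 44.6 and 88.5 CPM (2 of 10 lower), and their part in these differences was not tested. Igf2 was counted in 4 UMIs in Ctrl and 73 in dKO, but 61 of the 73 were in 1 cell, and the pair had fewer than 100 UMIs.

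MuSC-like cells, the class in which Yy1 was deleted, had the highest Igf2 and Cdkn1c levels of Ctrl, and 2 of the 7 genes with at least 100 UMIs were lower in dKO by 2-fold (Cdkn1c and Plagl1), against 4.79% of all 3989 genes tested in this class, and 0 were higher, against 1.15%. Cdkn1c was counted in 1571 UMIs in 45 Ctrl cells and 62 UMIs in 6 dKO cells, 679 CPM (646 to 713) against 100.2 CPM (76.8 to 128), a ratio of 0.148 (0.113 to 0.190). Of the 62 dKO UMIs 32 were in 1 cell. Plagl1 was at 131 and 9 UMIs, a ratio of 0.257 (0.115 to 0.503), Grb10 at 482 and 68 UMIs, 0.527 (0.403 to 0.681), Peg3 at 833 and 138 UMIs, 0.619 (0.513 to 0.742), and Mest at 525 and 90 UMIs, 0.641 (0.507 to 0.803). Igf2 and H19 were on the other side. Igf2 was at 461 and 206 UMIs, a ratio of 1.67 (1.41 to 1.97), and H19 at 957 and 353 UMIs, a ratio of 1.38 (1.22 to 1.56), but 98 of the 206 and 158 of the 353 dKO UMIs were in 1 cell. Without the top cell of each library the log2 ratio was 0.13 for Igf2 and -0.14 for H19.

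Of the IGF axis list, 6 genes reached 100 UMIs in MuSC-like cells and 3 were lower by 2-fold, where 4.79% of all genes were. They were the IGF binding proteins Igfbp5 (1042 and 36 UMIs, a ratio of 0.129), Igfbp6 (0.354) and Igfbp7 (0.185). Of the other imprinted genes, 10 reached 100 UMIs there and 1, Zdbf2, was past 2-fold, higher in dKO, as were 1.15% of all genes. Of the IGF axis list in the other classes, Igfbp5 (122 and 5 UMIs) was lower in EC-like cells, 1 of 9 genes counted. There 1.35% of all genes were lower by 2-fold and 0.611% higher. Igf2r (114 and 12 UMIs) and Igfbp3 (96 and 5 UMIs) were lower in smooth muscle-like cells, 2 of 7. In that class 3.73% of all genes were lower by 2-fold and 1.59% higher. Igf1 (209 and 27 UMIs) and Igfbp4 (186 and 27 UMIs) were lower in cycling MO/MP-like cells, 2 of 3, where 2.69% of all genes were lower and 2.31% higher. Igf2bp2 (36 and 85 UMIs), which encodes an RNA-binding protein, and Igfbp5 (97 and 244 UMIs) were higher in cycling FAP-like cells, 2 of 9. Of all genes there 1.74% were higher by 2-fold and 0.777% lower. Of the other imprinted genes, Meg3 was lower in MO/MP-like cells (134 and 40 UMIs, a ratio of 0.470), 1 of 17 counted. There 0.615% of all genes were lower by 2-fold and 1.36% higher. Meg3 was just past 2-fold higher in smooth muscle-like cells (136 and 76 UMIs), 1 of 6 counted, where 1.59% of all genes were higher. Igf2r, which is on both lists, was the 1 of those 6 that was lower. The cycling MO/MP-like class had 104 Ctrl and 36 dKO cells. The part of markers of other cell types in the differences of all these classes was not tested. The binding proteins, Igf2bp2 and Zdbf2 were chosen after their values were seen.

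The MuSC-like class was divided by Myog. This gene, a regulator of terminal myogenic differentiation, was detected in 34 of 119 Ctrl cells (28.6%) and 5 of 30 dKO cells (16.7%). Cdkn1c was at 1144 CPM in Ctrl and 186 CPM in dKO cells with a Myog UMI, and at 251 and 50.8 CPM in cells without one. In dKO these levels rest on 3 cells with Cdkn1c UMIs on each side of this division, with 32 of 42 UMIs in 1 cell with Myog and 16 of 20 in 1 cell without. In Ctrl they rest on 23 and 22 cells, with 188 of 1269 and 91 of 302 UMIs in the top cell. The Igf2 UMIs of dKO were mostly in the 5 cells with Myog (150 of 206), and in cells without Myog Igf2 was at 240.0 CPM in Ctrl and 142 CPM in dKO. In cells with Myog the order was the other way, at 155 CPM in Ctrl and 665 CPM in dKO, with 98 of the 150 dKO UMIs in 1 cell. H19 was at 218 and 99.2 CPM in cells without Myog and at 626 and 1392 CPM in the cells with it. The 8 myocyte markers summed to 2354 CPM in Ctrl and 4243 CPM in dKO MuSC-like cells, and 8 cell cycle markers to 557 and 343 CPM, with 7 of 8 lower. In the same class 10 FAP markers summed to 722 and 393 CPM (7 of 10 lower), 10 MO/MP markers to 102 and 25.9 CPM (9 of 10 lower), 6 smooth muscle markers to 640 and 436 CPM (5 of 6 lower), 10 EC markers to 19.02 and 4.85 CPM (7 of 10 lower) and 5 erythroid markers to 1 and 53 UMIs. The part of all these markers in the MuSC-like results was not tested.

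In EC-like cells (465 Ctrl and 179 dKO), 2 of 4 genes with at least 100 UMIs were lower by 2-fold, Cdkn1c and Mest, against 1.35% of all 4746 genes tested, and 0 were higher, against 0.611%. Mest was counted in 285 UMIs in Ctrl and 26 in dKO, 107 CPM (94.8 to 120) against 29.8 CPM (19.5 to 43.7), a ratio of 0.279 (0.179 to 0.418). As the mean of each cell's CPM the log2 ratio was -0.98 for Mest and -0.73 for Cdkn1c, both short of 2-fold. Nearly all of the Mest UMIs of Ctrl (276) were in the cluster led by Gpihbp1, where Mest was at 177 and 56.6 CPM. Cdkn1c was at 135 and 63.1 CPM, a ratio of 0.468 (0.346 to 0.623), and Grb10 at 97.8 and 86.0 CPM, a ratio of 0.880 (0.671 to 1.14). In this class 10 MuSC markers summed to 21.4 CPM in Ctrl and 2.29 CPM in dKO, with 8 of 10 lower and Cdh15 and Calcr at 0, and 7 pericyte markers to 539 and 265 CPM, with 7 of 7 lower. The 8 cell cycle markers summed to 41.6 and 13.8 CPM (8 of 8 lower), 8 myocyte markers to 57.3 and 12.6 CPM (7 of 8 lower) and 8 perineurial markers to 95.9 and 197 CPM (0 of 8 lower). Their part in the EC-like differences was not tested.

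Igf2 in EC-like cells came from a small cluster led by Cytl1, with 64 Ctrl and 32 dKO cells. It held 248 of 287 Igf2 UMIs of Ctrl EC-like cells and 105 of 118 of dKO, at 821 CPM (722 to 929) and 597 CPM (488 to 723), a ratio of 0.727 (0.573 to 0.917). Over all EC-like cells the ratio was 1.26 (1.01 to 1.56), on the other side of 1, and the Cytl1 cluster was 64 of 465 EC-like cells in Ctrl and 32 of 179 in dKO. In the Gpihbp1 cluster Igf2 was at 21.8 and 31.1 CPM (34 and 11 UMIs), with an interval of the ratio from 0.652 to 2.88.

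Over 13 classes and 9 genes there were 117 pairs, 35 of them with at least 100 UMIs. Of these 11 were lower in dKO by 2-fold or more and 0 were higher, where over the same 7 classes 1.35% of all genes tested were lower and 1.03% higher. With a minimum of 30 UMIs 15 were lower and 5 higher. The share of all genes past 2-fold at that minimum was not computed, so those counts cannot be read against the shares above. Of the 11 pairs 5 fell short of 2-fold under at least 1 other way of processing, namely H19 in FAP-like and MO/MP-like cells, Cdkn1c in cycling FAP-like and EC-like cells, and Mest in EC-like cells. The lower pairs were Igf2, H19, Dlk1 and Mest in FAP-like cells, H19 and Cdkn1c in cycling FAP-like cells, Cdkn1c and Plagl1 in MuSC-like cells, Cdkn1c and Mest in EC-like cells, and H19 in monocyte and macrophage (MO/MP-like) cells. In MO/MP-like cells H19 was counted in 102 and 26 UMIs, 8.43 and 3.39 CPM, against 364 CPM in FAP-like cells of Ctrl. Classes that should hold little H19 were at a like level in Ctrl, T cell-like cells at 7.20 CPM (1.48 to 21.04), smooth muscle-like cells at 8.45 CPM (3.40 to 17.4) and EC-like cells at 5.25 CPM (2.87 to 8.80), so the MO/MP-like value is at background and is not read as expression. Without integration its log2 ratio was -0.87, short of 2-fold. In MO/MP-like cells 0.615% of all genes tested were lower by 2-fold and 1.36% higher. Tenocyte-like cells, which lie near FAPs in their matrix genes, had 0 of 5 genes past 2-fold, with 0.792% of all genes in them lower and 0.507% higher by that much. There Mest was at 172 and 149 CPM, a ratio of 0.868 (0.699 to 1.07), Cdkn1c at 249 and 214 CPM, 0.862 (0.721 to 1.03), and Grb10 at 86.1 and 73.3 CPM, 0.852 (0.623 to 1.15). Peg3 and Ndn lay on the other side of 1, at 1.15 (0.784 to 1.67) and 1.13 (0.759 to 1.67), and the intervals of all 5 included 1. Below 100 UMIs and so not counted, H19 was at 50 and 3 UMIs in tenocyte-like cells, 31 of the 50 in 1 cell, a ratio of 0.105 (0.0210 to 0.326), and Plagl1 at 70 and 16 UMIs, 0.401 (0.218 to 0.698). In smooth muscle-like cells Igf2 was at 122 and 28 UMIs, a ratio of 0.821 (0.524 to 1.25), which is -0.28 on the log2 scale and was 0.10 with no doublets removed, and it was the only one of the 9 genes counted there, where 3.73% of all genes were lower and 1.59% higher by 2-fold.

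Genes whose levels ran most like those of Igf2 and H19 were taken by Pearson r of log2(CPM + 1) over the 26 points of 13 classes in 2 libraries, among 12557 genes. For Igf2 they were Hey1, a Notch target gene (r of 0.88), Filip1 (0.87), Tspan12 (0.87), Pik3r3 (0.87) and Pdcl3 (0.86). For H19 they were Musk, the receptor kinase of the neuromuscular junction (0.89), Msc (0.88), Dpp6 (0.87), Has2 (0.87) and Arhgdig (0.86). Igf2 and H19 themselves had an r of 0.46, and Mest and Grb10 the highest among the 9, at 0.91. The points share libraries and differ in depth, and these values are a description.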

How the data were processed

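Single cell RNA-seq was analysed in 2 libraries, Ctrl and dKO, each from 3 pooled mice. What the authors deposited for each library is a matrix of raw UMI counts, genes by cell barcodes, with no normalization. Per the labels the counts came from Cell Ranger 7.0.0 on mm10, with Seurat 4.3.0 and Cufflinks also named in the submitters' processing notes, whereas the file headers give software version 3.0.2. There were 0 mitochondrial rows, so the study's mitochondrial filter could not act. The study states 2 filters. That of at least 200 genes and 1000 UMIs left 4295 of 4527 Ctrl and 3306 of 3483 dKO barcodes, and that of at least 500 genes, used here, left 4335 and 3329.

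Doublet scores came from Scrublet in scanpy 1.11.5. Its own threshold called 4 Ctrl and 14 dKO cells and had not worked, so the 7.5% of cells with the highest scores in each library were removed (325 and 250). Counts were log-normalized (scale factor of 10000), integrated in Seurat 5.3.0 (R 4.3.3) by anchors (2000 variable genes, 40 dimensions) and clustered at a resolution of 0.8, with 77 genes, including the 9 genes, kept out of the variable genes. The 22 clusters were named from 20 marker lists of 144 genes, 3 of them absent from the gene rows, by the list with most genes among the 10 leading genes or, where no list had one there, by the list with most enriched markers (2-fold over the median other cluster, in at least 10% of cells), with at least 3 enriched in either case. Cycling clusters were named by their enriched markers. FAP-like cells were sub-clustered at a resolution of 0.4. Named classes with at least 30 cells in each library were compared, with 1 class left unnamed and called by Cd209f and Fcna.

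UMIs were summed per class and library and scaled to CPM of the class total. Intervals are 95% intervals for counting error (exact Poisson, exact conditional binomial for ratios and exact binomial for shares, scipy 1.17.1), and a UMI count of 0 was bounded by 3 counts. A pair of gene and class entered the 2-fold count with at least 100 UMIs over both libraries. Cells were thinned to fixed totals of 2000 or 5000 UMIs with a fixed seed. Gene positions came from GENCODE M21 (GRCm38), start site windows from RefSeq (GRCm38.p6).

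The members and lists were chosen with earlier results of these data known. Named genes were the 9 genes, Yy1, Meg3, Rian, Igf2r, Igf1, Igf1r, list genes past 2-fold in FAP-like cells (0 were) and the 5 genes most like Igf2 and H19. Igfbp3, Igfbp4, Igfbp5, Igfbp6, Igfbp7, Igf2bp2, Zdbf2 and Myog fall outside that rule and were named after their values were seen.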

Additional observations from a re-analysis of the deposited data

Results flagged for a closer look

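Igf2 and H19 were on different sides of Ctrl in different classes, which is why they are listed here. The Igf2 log2 ratio of dKO to Ctrl was -2.43 in FAP-like cells against 0.74 in MuSC-like and 0.33 in EC-like cells. The H19 log2 ratio was -1.09 in FAP-like, -1.83 in cycling FAP-like and -1.32 in MO/MP-like cells against 0.46 in MuSC-like cells. The difference between classes was not tested, since each group had 1 library. In MuSC-like cells 98 of 206 Igf2 UMIs and 158 of 353 H19 UMIs of dKO were in 1 cell each, and without the top cell of each library the log2 ratios were 0.13 and -0.14. The MO/MP-like H19 level of Ctrl, 8.43 CPM, was near that of T cell-like cells, 7.20 CPM (3 UMIs), which should lack it. The MO/MP-like value is not read as expression, and whether it is background was not tested. In EC-like cells the cluster led by Cytl1 held 248 of 287 Ctrl and 105 of 118 dKO Igf2 UMIs and had a ratio of 0.727 (0.573 to 0.917), on the same side as FAP-like cells. The EC-like Igf2 log2 ratio was 0.20 without the top cell and -0.08 as the mean of each cell's CPM.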

How the results depend on the processing

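No paired analysis was possible because each group had 1 library, and leaving out a replicate was not possible for the same reason. The Igf2 log2 ratio in FAP-like cells ran from -2.57 to -2.34 over the 8 alternatives tried, of which the one without cells holding MuSC or EC genes was chosen after seeing the data, and was -1.60 with cycling FAP-like cells added, also chosen after seeing the data, 61 of the added UMIs being in 1 cell. The share of Ctrl Igf2 UMIs held by FAP-like cells was 30.9% with no doublets removed and 30.3% without the top cell, and that in the top 10% of FAP-like cells was 99.3% at a resolution of 0.4. With at least 30 UMIs, 15 pairs of gene and class were lower by 2-fold and 5 higher, and with no minimum 28 were lower and 11 higher. Of the 34 other pairs of gene and class, 5 moved out of their interval with no doublets removed, 3 at a resolution of 0.4, 6 as the mean of each cell's CPM and 4 without the top cell. Leaving out cells with MuSC or EC genes was tried in FAP-like cells only. There 2 of 8 pairs moved, and the log2 ratio of H19 was -0.93, short of 2-fold. With no doublets removed the log2 ratio of H19 was -2.23 in MO/MP-like and 0.14 in MuSC-like cells and that of Mest was -1.24 in MuSC-like cells. As the mean of each cell's CPM, the Igf2 log2 ratio in MuSC-like cells was 0.05 and the Mest log2 ratio in EC-like cells was -0.98, short of 2-fold. The cause was not tested. The log2 ratio of Ndn in FAP-like cells, -0.03, was 0.03 under scaling to the median ratio and 0.01 both at a resolution of 0.4 and as the mean of each cell's CPM. At a resolution of 0.4 the cycling FAP-like class held 124 Ctrl and 173 dKO cells, led by Cxcl5, so both FAP classes were other sets of cells there. Sub-clusters of FAP-like cells were not rerun under the alternatives. The depth limits pairs under 100 UMIs, most of them outside the stromal classes.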
